A study of Rattus norvegicus with 8 samples.

Results

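Myoglobin (Mb), metallothionein 3 (Mt3) and 7 antioxidant enzymes were compared between the orbital and the global layer of rat extraocular muscle. The enzymes were the superoxide dismutases Sod1, Sod2 and Sod3, catalase (Cat), the glutathione peroxidases Gpx1 and Gpx4, and peroxiredoxin 3 (Prdx3). Every probe set annotated to exactly 1 of these symbols was taken, which gave 9 probe sets for 9 genes, of 10411 named genes and 15866 probe sets in all. The study cut the 2 layers from adult rat extraocular muscle by laser, amplified the RNA and hybridised it to 1-colour Affymetrix RAE230A arrays, with 4 orbital and 4 global captures. The labels give no strain, sex or treatment, and they tie no capture to an animal. Within each layer, capture numbers follow accession order. Captures 1 and 2 of each layer carry the title prefix R2 and captures 3 and 4 the prefix R3, whose meaning is not given, and orbital captures 3 and 4 have nearly the same title. The p-values therefore measure only the spread between captures, and they are too small if captures share an animal.

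The orbital layer faces the orbital wall and acts on the muscle pulley, while the global layer runs to the eyeball. Myoglobin stores oxygen in oxidative muscle fibres. Superoxide leaking from respiration is turned into hydrogen peroxide by the superoxide dismutases, and catalase, glutathione peroxidases and peroxiredoxins remove the peroxide. Metallothioneins bind zinc and copper, and metallothionein 3 is best known from brain.

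Mb, Mt3 and Gpx1 were higher in the orbital layer, by 1.77-fold, 4.36-fold and 1.49-fold. No gene of the 9 was called lower. The test was limma on log2(intensity + 1) over 9520 probe sets with Benjamini-Hochberg adjustment and a threshold of 0.05, and all 9 genes passed its filter on dim probe sets. It called 3 of the 9 genes, against 7.41% of all tested probe sets called in either direction, 3.91% called higher and 3.5% called lower. The layers did not overlap for 4 of the 9 genes, against 14.1% of all tested probe sets. The median difference was 0.58 on the log2 scale over the 9 genes and 0.02 over all tested probe sets. Each difference below is orbital minus global on that scale, and levels are not compared between probe sets. The 9 genes were chosen with earlier results of these data known. The shares and medians above are therefore descriptions and no test of the set.

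**Figure D1:**
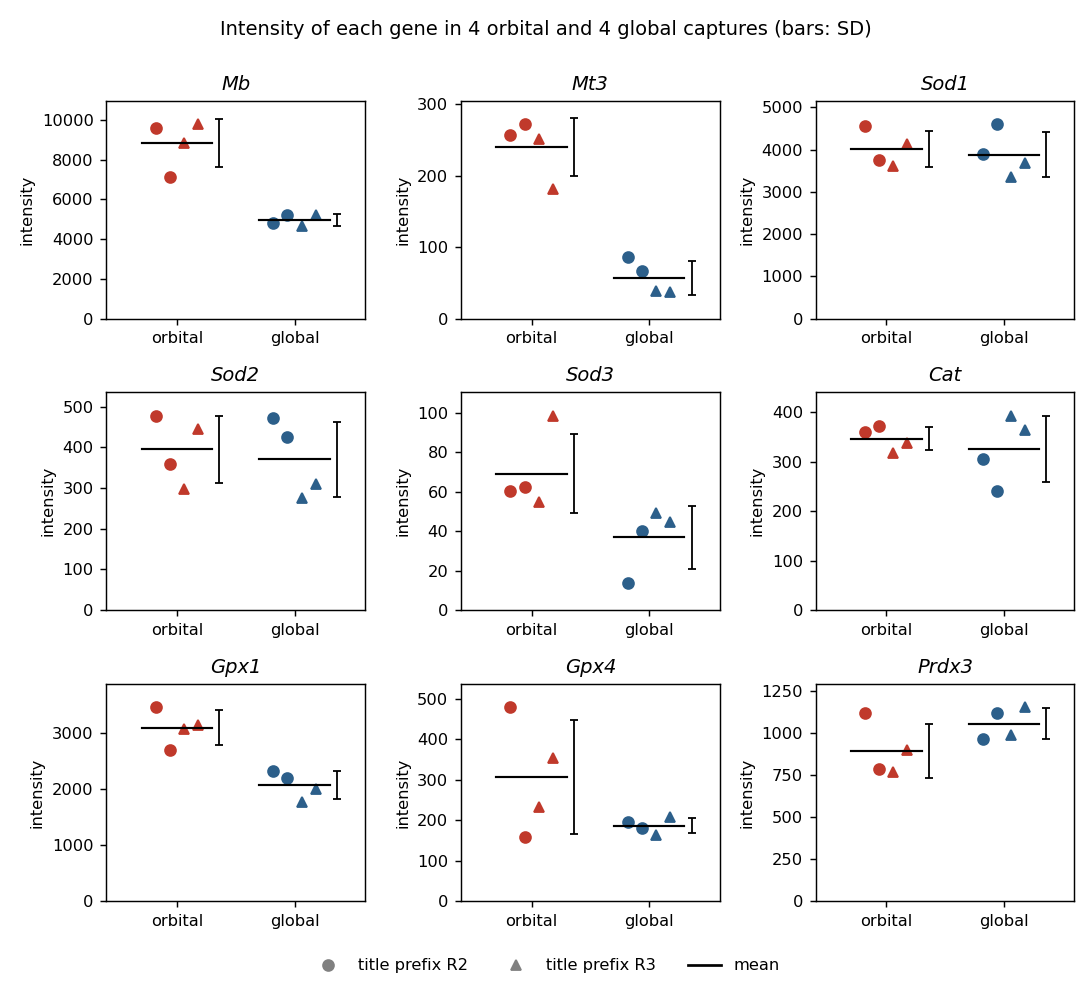
Array intensity (linear axis from 0, 1 panel per gene) of the 9 genes in 4 orbital captures (left, red) and 4 global captures (right, blue), with the mean as a line, the SD as a bar, and the title prefix by marker. The layers do not overlap for Mb, Mt3, Sod3 and Gpx1, and they overlap for the other genes.

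Mb (probe set 1387768_at) had intensities of 9582.9, 7140.0, 8864.9 and 9789.2 in orbital captures 1 to 4, against 4826.7, 5218.7, 4640.3 and 5204.2 in global captures 1 to 4. Every orbital capture lay above every global capture, and the orbital captures spread more widely. The orbital mean was 8844 ± 1203 and the global mean 4972 ± 286 (SD, n = 4 each). The difference was 0.82 ± 0.14 (SE), with a limma adjusted p of 0.0029. It was 0.72 among captures titled R2 (adjusted p = 0.143, 2 against 2) and 0.92 among those titled R3 (adjusted p = 0.0617), both in the same direction. In bulk samples such as these, fewer cells of a type and less RNA per cell cannot be told apart. Mb lies at chr7:110640511-110647742 in the rat RefSeq assembly GRCr8.

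Mt3 (1370124_at) had intensities of 257.0, 272.4, 252.1 and 181.0 in the orbital captures, against 86.1, 66.6, 38.6 and 37.6 in the global captures. The lowest orbital capture lay above the highest global capture, and within each layer the captures titled R2 lay above those titled R3. The orbital mean was 241 ± 40.7 and the global mean 57.2 ± 23.5 (SD, n = 4 each). The difference was 2.12 ± 0.26, a 4.36-fold higher level (95% interval 2.97 to 6.39), with a limma adjusted p of 0.000286. Global capture 4, at 37.6, lay under the brightest bacterial control probe set of its array (41.5), so the fold depends on dim global values. With a pseudocount of 64 in place of 1 the difference was 1.34 (adjusted p = 8.05e-05). The difference was 1.79 among captures titled R2 and 2.46 among those titled R3. Mt3 lies at chr19:10854676-10856080 (GRCr8).

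The promoters of these 2 genes are shown because they had the largest differences of the 3 genes called and have well-studied control elements. Each is the 250 bases before the RefSeq start in GRCr8, read 5′ to 3′ on the minus strand. That of Mb lies at chr7:110647743-110647992 and that of Mt3 at chr19:10856081-10856330. Capitals mark the CCAC box core CCACCCC and the TATA box TATAAAA in Mb, and in Mt3 the TATA box and the metal response element cores TGCACNC and TGCGCNC, searched on both strands.
Mb: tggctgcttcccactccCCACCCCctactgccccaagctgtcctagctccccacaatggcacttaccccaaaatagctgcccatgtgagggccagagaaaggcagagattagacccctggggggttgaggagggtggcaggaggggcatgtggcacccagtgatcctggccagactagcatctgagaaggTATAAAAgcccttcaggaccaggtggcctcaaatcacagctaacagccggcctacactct
Mt3: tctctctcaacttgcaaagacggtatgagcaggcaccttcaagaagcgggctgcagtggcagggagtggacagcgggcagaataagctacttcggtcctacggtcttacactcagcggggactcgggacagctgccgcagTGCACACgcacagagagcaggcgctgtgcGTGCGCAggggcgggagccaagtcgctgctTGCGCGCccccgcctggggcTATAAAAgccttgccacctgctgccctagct
Positions are counted back from the start of each promoter entry. That of Sod1 lies inside the gene span given for Sod1 below. The 8 genes with an entry had 10 entries, with several for Gpx4, and a match in any entry was counted. The TATA box letters stood at -60 to -54 in Mb, -31 to -25 in Mt3 and -28 to -22 in Sod1, which was not called. Of 33469 rat promoter windows, 5.38% hold them. CCACCCC stood at -233 to -227 in Mb, and 11.9% of windows hold it. On the other strand it also stood in Cat (-9 to -3) and Gpx4 (-132 to -126), which were not called. Mt3 held TGCACNC at -110 to -104, as 10.3% of windows do, and TGCGCNC at -51 to -45 and, on the other strand, at -81 to -75, as 11.8% do. Of the 8 genes with a window in the table, Mt3 alone held either metal response core. The E box CANNTG was in Mb, Mt3, Gpx4 and Prdx3 and in 65.5% of windows. The antioxidant response core TGACNNNGC was in Sod2 (10.1% of windows), and the MEF2 site in 0 of the 8 genes (3.41%). The hypoxia response core was searched only in its form ACGTG, which was in Sod1 and Prdx3 (16.6%). Other forms of it were not searched. A match is a description of letters and not a bound site.

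Among the superoxide dismutases, none passed the test. Sod1 (1367641_at, chr11:42942742-42948399), the copper and zinc enzyme of the cytosol, ranged over 3602.1 to 4565.4 in orbital captures and 3339.9 to 4600.0 in global captures. Its difference was 0.05 ± 0.14, with a 95% interval of -0.25 to 0.35 and a limma adjusted p of 0.869. Sod2 (1370172_at, chr1:50043323-50050168), the manganese enzyme of mitochondria, ranged over 298.8 to 478.6 in orbital captures and 275.9 to 471.6 in global captures. Its difference was 0.10 ± 0.20 (95% interval -0.32 to 0.52, limma adjusted p = 0.812). For both genes the layers overlapped.

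Sod3 (1368322_at, chr14:62822865-62828602), the secreted superoxide dismutase, had intensities of 60.3, 62.4, 54.6 and 98.6 in the orbital captures, against 13.5, 39.9, 49.1 and 44.7 in the global captures. The layers did not overlap, but the values were dim and global capture 1 stood below the rest, under its array's control limit of 17.7. The difference was 0.997 ± 0.371 (95% interval 0.20 to 1.80), with an unadjusted p of 0.0185 and a limma adjusted p of 0.132. Without global capture 1 it was 0.58 (adjusted p = 0.235).

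Gpx1 (1367576_at, chr8:117905462-117906588), the main cytosolic glutathione peroxidase, had intensities of 3470.0, 2702.1, 3068.1 and 3151.6 in the orbital captures, against 2333.3, 2205.1, 1774.6 and 2000.2 in the global captures. Every orbital capture lay above every global capture. The orbital mean was 3098 ± 316 and the global mean 2078 ± 245 (SD, n = 4 each). The difference was 0.58 ± 0.13, 1.49-fold (95% interval 1.23 to 1.82), with a limma adjusted p of 0.0171. Without orbital capture 1 the adjusted p was 0.0584 and without global capture 3 it was 0.0562. The difference was 0.43 among captures titled R2 (adjusted p = 0.376) and 0.72 among those titled R3 (adjusted p = 0.100).

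Gpx4 (1386871_at, chr7:10300833-10303629), which reduces lipid peroxides in membranes, had intensities of 480.2, 158.9, 232.7 and 353.6 in the orbital captures, against 195.0, 182.2, 162.9 and 207.9 in the global captures. Orbital capture 2 was the lowest of all 8, and the other orbital captures lay above every global capture. The difference was 0.59 ± 0.27 (95% interval 0.02 to 1.17), with a limma adjusted p of 0.217. Without orbital capture 1 it was 0.34 (adjusted p = 0.462), and without orbital capture 2 it was 0.87 and passed (adjusted p = 0.0355).

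Cat (1367995_at, chr3:110297340-110329526), the peroxisomal enzyme that splits hydrogen peroxide, ranged over 318.0 to 371.5 in orbital captures and 240.7 to 393.4 in global captures. Its difference was 0.11 ± 0.16 (95% interval -0.23 to 0.45, limma adjusted p = 0.741). It was 0.43 among captures titled R2 and -0.21 among those titled R3. That change between prefixes had an unadjusted p of 0.0339 and an adjusted p of 1. In limma, 0 of 9520 probe sets had a layer difference that changed with the prefix after adjustment, while 290 had an unadjusted p under 0.05.

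Prdx3 (1367591_at, chr1:269987691-270000111), the peroxiredoxin of mitochondria, was the 1 gene of the 9 with a negative difference. Its intensities were 1121.1, 787.5, 768.2 and 902.9 in the orbital captures, against 967.9, 1118.7, 987.9 and 1157.2 in the global captures. Orbital capture 1 lay among the global captures and the other orbital captures lay below them. The difference was -0.25 ± 0.14 (95% interval -0.56 to 0.05, limma adjusted p = 0.325).

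**Figure D2:**
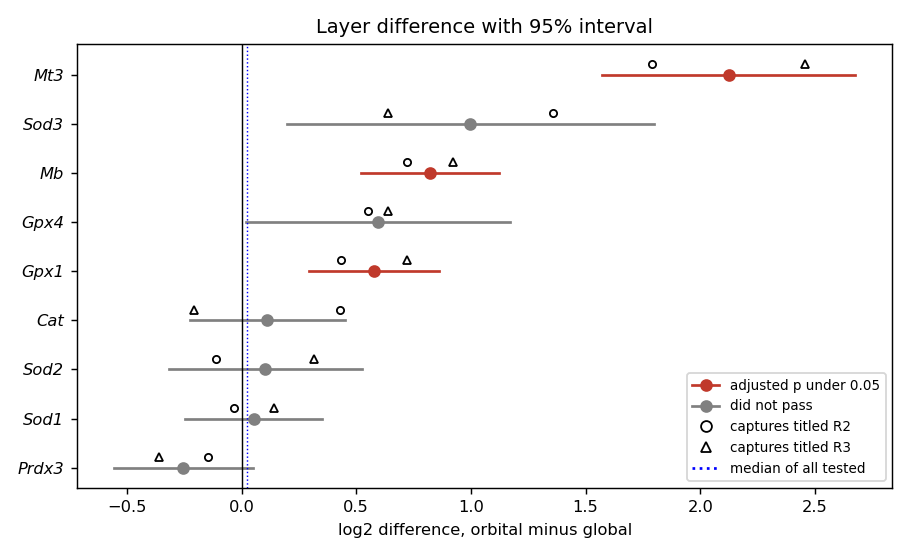
Log2 difference, orbital minus global, of the 9 genes (points) with 95% intervals (lines), and the difference within captures titled R2 (circles) and R3 (triangles). Mt3 stands at 2.12, Mb at 0.82 and Gpx1 at 0.58, and the intervals of Cat, Sod2, Sod1 and Prdx3 include 0. Those of Sod3 and Gpx4 exclude 0, but the intervals are not adjusted for the number of tests, and neither gene was called.

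Some captures stood high or low for several of the genes. Orbital capture 1 was the highest orbital capture for 5 of the 9 genes (Sod1, Sod2, Gpx1, Gpx4 and Prdx3). Orbital capture 3 was the lowest for 5 of the 9 and the highest for 0. In the global layer the captures titled R2 lay wholly above those titled R3 for Mt3, Sod1, Sod2 and Gpx1, and wholly below them for Sod3 and Cat. The 3′ to 5′ signal ratio of Gapdh, a measure of RNA or amplification quality, averaged 8.41 ± 3.21 over orbital captures and 5.79 ± 0.478 over global captures (SD, n = 4 each). An exact two-sided permutation test gave p = 0.114, adjusted to 0.229 over 2 such ratios. The Gapdh ratio was 12.9 in orbital capture 3. The other ratio, of beta actin, averaged 8.43 ± 0.536 over orbital and 8.98 ± 1.43 over global captures (p = 0.543 in the same permutation test). It was 8.32 in orbital capture 3. The part of RNA or amplification quality in the results was not tested.

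Related genes were called in both directions. In the related and marker lists each gene was read by its brightest tested probe set. Over all genes read so, 550 of 7163 were called, 293 higher and 257 lower in the orbital layer. Of 18 tested genes of the peroxiredoxin and thioredoxin system, 1 rose and 2 fell, with a median difference of 0.06. In this list 6 genes had an unadjusted limma p under 0.05. Prdx2, a cytosolic peroxiredoxin abundant in red blood cells, averaged 2279 ± 398 in orbital captures and 1436 ± 306 in global captures (SD, n = 4 each, as for the genes below), a difference of 0.67 (limma adjusted p = 0.0269). Its adjusted p was 0.0508 to 0.089 when orbital capture 2 or 4 or global capture 1, 3 or 4 was left out. Msrb1, a selenoprotein that repairs oxidised methionine, averaged 296 ± 35.6 and 502 ± 14.7, a difference of -0.77 (adjusted p = 0.00219). Glrx, glutaredoxin, averaged 54.7 ± 16.2 and 137 ± 19.1, a difference of -1.35 (adjusted p = 0.00289), but its other probe set differed by 0.29 (adjusted p = 0.513).

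In the glutathione system 2 of 21 tested genes rose and 0 fell, with 6 at an unadjusted limma p under 0.05 and a median of 0.07. Gpx3, the secreted glutathione peroxidase, averaged 593 ± 68.3 in orbital captures and 365 ± 28.3 in global captures, a difference of 0.69 (limma adjusted p = 0.00409). Gstm7, a glutathione transferase with close paralogs, differed by 0.64 (adjusted p = 0.0423), and its adjusted p was 0.0562 to 0.124 when orbital capture 1 or 3 or any 1 global capture was left out. Gstm7 also did not pass after quantile or cyclic loess normalization, without the filter, without the trend, or with the title prefix as a fixed block. Gsr, which regenerates glutathione, was too dim to test and lay under the control limit on 7 of the 8 arrays.

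Of 20 tested genes of the oxidative stress response and copper chaperones, 1 rose and 3 fell, with a median of -0.12. An unadjusted limma p under 0.05 was found for 9 of the 20. The layers did not overlap for 8 of the 20, against 14.1% of all tested probe sets. Nqo1, a quinone reductase induced through Nfe2l2, averaged 463 ± 81.9 in orbital captures and 219 ± 43.9 in global captures, a difference of 1.08 (limma adjusted p = 0.0024). Park7, a redox-sensitive protein, averaged 1373 ± 63.0 and 2154 ± 203, a difference of -0.65 (adjusted p = 0.00384). Selenok, a selenoprotein of the endoplasmic reticulum, averaged 1514 ± 143 and 2581 ± 342, a difference of -0.76 (adjusted p = 0.00298). Sesn1, a stress-induced sestrin, differed by -0.55 (adjusted p = 0.0291). Its adjusted p was 0.0506 to 0.095 when orbital capture 1, 3 or 4 or global capture 1, 2 or 3 was left out. Nfe2l2 itself differed by 0.13 (adjusted p = 0.586), its inhibitor Keap1 by 0.27 (adjusted p = 0.244), and Ccs, the copper chaperone of Sod1, by 0.03 (adjusted p = 0.947). These 3 were named after their values were seen.

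No other metallothionein or zinc gene was called: of 16 tested, 0 passed in limma and 1 had an unadjusted p under 0.05. Mt2A differed by 0.18 (adjusted p = 0.739), and Mt1 lay under the control limit on all 8 arrays and was not tested. Mtf1, the zinc sensor that acts on metal response elements, differed by -0.06 (adjusted p = 0.815). Of 9 tested genes of other globins and haem synthesis, 0 passed and 1 had an unadjusted p under 0.05. Cygb, cytoglobin, differed by -0.10. Mt2A, Mt1, Mtf1 and Cygb were named after their values were seen.

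Among oxygen sensors and regulators of oxidative fibres, 3 of 22 rose and 3 fell, with a median of 0.08. An unadjusted limma p under 0.05 was found for 8 of the 22. Egln3, a prolyl hydroxylase that marks Hif1a for breakdown, averaged 652 ± 271 in orbital captures and 1569 ± 152 in global captures, a difference of -1.34 (limma adjusted p = 0.0022). Vhl, which binds hydroxylated Hif1a, differed by 0.89 (adjusted p = 0.00535). Ppp3ca, the catalytic subunit of calcineurin, differed by -1.18 (adjusted p = 0.00036) and by -1.83 in its other probe set, and Ppp3r1, the regulatory subunit, by -0.70 (adjusted p = 0.00686). Hif1a, the oxygen-regulated factor itself, averaged 671 ± 163 and 358 ± 78.9, a difference of 0.90 (adjusted p = 0.0136). Rcan1, a calcineurin inhibitor, differed by 0.82 (adjusted p = 0.0335). Its adjusted p was 0.057 to 0.114 when orbital capture 1, 3 or 4 or global capture 1 or 3 was left out. Hif1a and Rcan1 were named after their values were seen.

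Of 20 mitochondrial oxidation genes 1 rose and 1 fell, with a median of 0.03 and 5 at an unadjusted limma p under 0.05. Ogdh, a citric acid cycle enzyme, differed by 0.50 (limma adjusted p = 0.0361), a call lost on leaving out any 1 capture except global capture 3 (0.0632 to 0.0914). Vdac1, a channel of the outer mitochondrial membrane, differed by -1.31 (adjusted p = 0.00138). Of 5 tested sources of superoxide and peroxide, 0 passed in limma and 2 had an unadjusted p under 0.05.

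**Figure D3:**
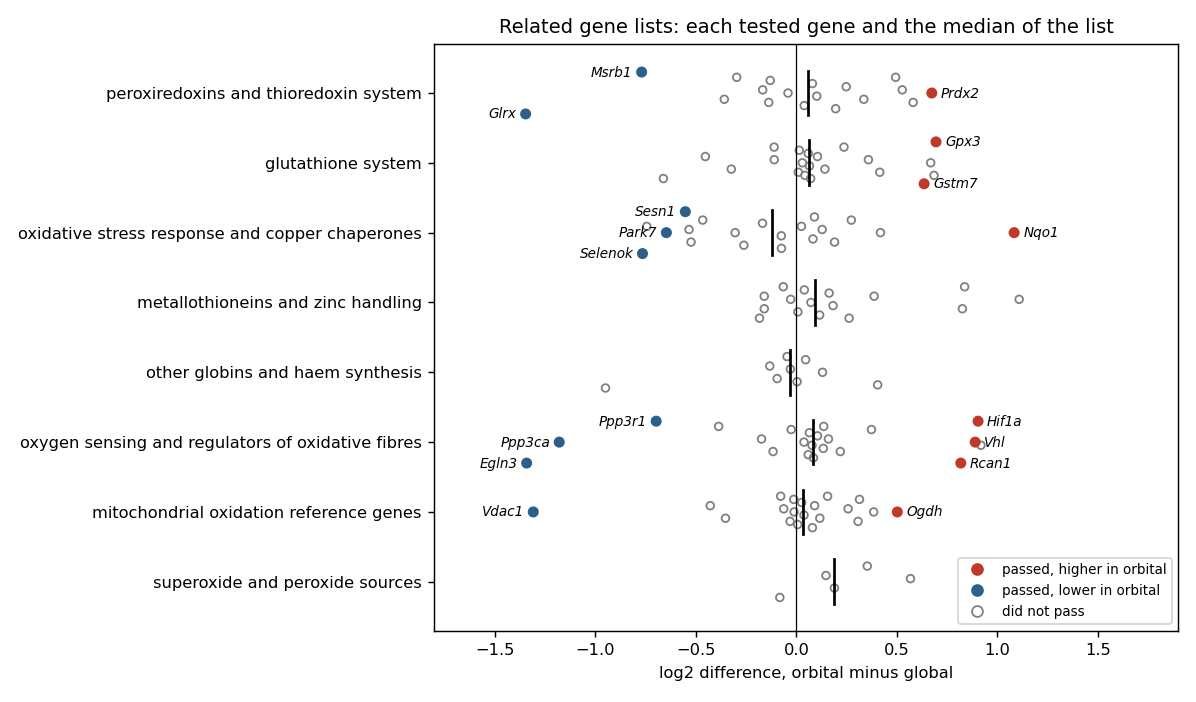
Log2 difference, orbital minus global (x axis), of each tested gene in 8 related lists (y axis), with the median of each list as a bar and called genes filled and named. The medians lie between -0.12 and 0.19, and called genes lie on both sides of 0.

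Markers of the tissue and of other cells were measured in the same captures. All 10 skeletal muscle markers passed the filter, with a summed intensity of 51281 to 74874 in orbital and 58755 to 88701 in global captures, and 1 of them (Ttn, -0.70) was called. At an unadjusted limma p under 0.05 stood 4 of the 10, all lower in the orbital layer (Ttn, Ckm -0.58, Neb -0.45 and Tnnt3 -0.43). The median of the list was -0.24, with 4 positive and 6 negative differences. Red blood cell markers, which bear on haem proteins, summed to 483 to 968 and 546 to 1518, with 0 of 3 tested called and 0 at an unadjusted limma p under 0.05. Nerve and Schwann cell markers summed to 3047 to 5750 in orbital and 1669 to 5204 in global captures, and 2 of 7 tested (Nefm and Cnp) rose. All 7 had a positive difference, with a median of 0.84. Nefm did not pass when orbital capture 1, 2 or 3 or global capture 1 or 4 was left out (adjusted p of 0.0719 to 0.0829), nor Cnp without orbital capture 3 (0.051). Photoreceptor markers summed to 1636 to 3476 and 515 to 1578, and 1 of 6 tested (Guca1a, 2.05) rose. All 6 had a positive difference, with a median of 1.27, so the fitted differences of both neural lists had the same sign as that of Mt3. These ranged down to 0.05 (Pde6g), and some rest on dim global values. Sag in global captures 2 and 3 (2.2 and 13.2) and Gnat1 in global capture 2 (8.7) lay under the control limits. Without Guca1a the photoreceptor sums overlapped, at 608 to 2118 and 216 to 1236. Global captures 1 and 4 (1236 and 1113) then lay above orbital captures 1 and 3 (621 and 608), unlike their Mt3.

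Mt3 is expressed in neural tissue, so it was set beside these sums. Orbital capture 2 had the highest nerve sum (5750) and the highest Mt3 intensity (272.4), and the nerve sums of global captures 1 to 3 (1669 to 2329) lay below those of every orbital capture, as their Mt3 did. Global capture 4 had a nerve sum of 5204 and an Mt3 intensity of 37.6. Pmp22, a myelin protein, gave 3674.2 of that sum and 3840.3 of the sum of orbital capture 2. In global capture 4, Mbp (491.6) lay above every orbital capture (240.6 to 490.1). Prx (308.3), S100b (245.6), Mag (61.8) and Pmp22 (3674.2) lay within their orbital ranges there. Cnp (153.3) and Nefm (56.5), a neurofilament of axons, lay below every orbital capture. Nefm had intensities of 237.7, 224.1, 222.7 and 145.1 in the orbital captures, against 53.4, 110.5, 163.6 and 56.5 in the global captures. For Nefm, global capture 3 alone lay above an orbital capture (capture 4). Nefm was not chosen in advance to be shown by capture. The other tested nerve markers differed by 0.03 (S100b) to 1.02 (Mbp), and of these only Cnp passed in limma. Nefl and Nefh, the other neurofilaments listed, were too dim to test. So was Sox10, also on the nerve list. It was 67.6 in global capture 4, above the control limit of 41.5, and 4.2 to 8.3 in all other captures. Astrocyte and central neuron markers summed to 607 to 728 in orbital and 532 to 783 in global captures, with 0 of 7 tested called and 2 at an unadjusted limma p under 0.05. The part of nerve and photoreceptor RNA in the Mt3 difference was not tested. Endothelial markers summed to 1093 to 1637 and 1100 to 1248, with 1 of 8 called (Eng, 1.29) and 3 at an unadjusted limma p under 0.05. Eng did not pass when orbital capture 2 or 3 or global capture 1 or 3 was left out (adjusted p of 0.0523 to 0.0676). Fibroblast markers summed to 5380 to 8383 and 4108 to 7507, with 2 of 8 called higher (Fbln1 and Fmod) and 4 at an unadjusted limma p under 0.05. Neither of these 2 genes passed when orbital capture 1, 2 or 3 or global capture 1, 2 or 4 was left out (adjusted p of 0.0505 to 0.14). Smooth muscle markers summed to 890 to 1090 and 1184 to 1276, so every orbital sum lay below every global sum. In this list 1 of 7 was called lower (Myh11, -1.39), and 2 had an unadjusted limma p under 0.05. The part of endothelial, fibroblast and smooth muscle RNA in the Sod3 values was not tested. Adipocyte markers summed to 258 to 497 and 357 to 860, and macrophage and lymphocyte markers to 1012 to 1419 and 995 to 2062, with none called of the 2 and 5 tested in limma (1 and 0 at an unadjusted p under 0.05).

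**Figure D4:**
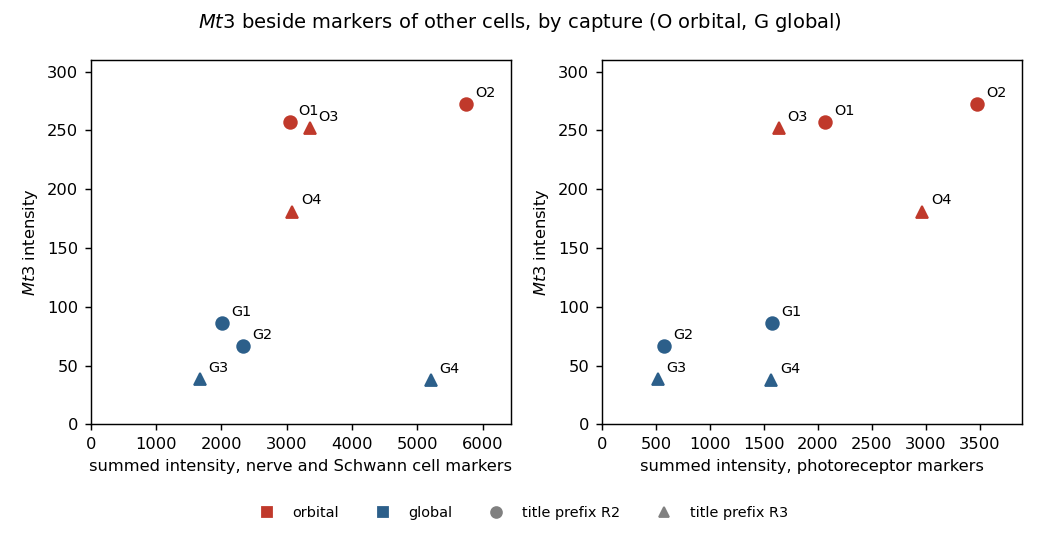
Mt3 intensity (y axis) against the summed intensity of nerve and Schwann cell markers (left) and photoreceptor markers (right) in 4 orbital (red) and 4 global (blue) captures, with the title prefix by marker. Orbital capture 2 is highest on both axes of the left panel (5750 and 272.4). Global capture 4 combines a nerve sum of 5204 with an Mt3 intensity of 37.6. Pmp22 gives 3840.3 of the nerve sum in orbital capture 2 and 3674.2 in global capture 4.

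The genes whose patterns lay nearest were found by the root mean square difference between log2 profiles centred on their mean, over 8 captures and 7972 probe sets, given as a description. For Mb they were Serf2 (0.116), Cfap36 (0.117) and Ldhb (0.117), against a root mean square of 0.433 for Mb itself. For Mt3 they were Lratd1 (0.290), Adamts1 (0.376) and Map2 (0.386), against 1.13, and for Gpx1 Nudt7 (0.0656), Wbp11 (0.0715) and S100a16 (0.0927), against 0.321. With profiles centred within each layer, the nearest genes were others: Chmp2a (0.0311) for Mb, Mdk (0.119) for Mt3 and Golga4 (0.0368) for Gpx1.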

How the data were processed

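Per the labels, RNA of the laser captures went through T7 amplification before hybridisation to 1-colour Affymetrix arrays. The deposited table holds 1 linear intensity per probe set and array, and the summarising software is not given in the sources used here. The 8 arrays shared 1 trimmed mean (2% trim) to within 0.0039%, so the deposited intensity values were used without rescaling. Array medians were 58.8 to 66.3. Array data have no read depth, and 4 captures per layer limit the precision.

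Layers were taken from the labels. The table has 15923 probe sets, 57 of them controls. A probe set was tested if it was no control and its mean log2 value reached the 40th percentile, which is an intensity of 39.4. lmFit and eBayes with an intensity trend (limma 3.58.1, R 4.3.3) were run on log2(intensity + 1) of the deposited values, modelling layer alone, and Benjamini-Hochberg adjustment covered all 9520 probe sets. Folds are on this scale, and those of dim probe sets depend on the pseudocount. The control limit of an array is its brightest of 27 bacterial control probe sets. Symbols came from the platform annotation (12783 probe sets had 1 symbol, 312 had several and 2771 had none), and positions and promoters from RefSeq GRCr8, where 8 of the 9 genes had a promoter entry.

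The 9 genes and all lists were chosen with earlier results of these data known. From each related list, at most 4 called genes with the smallest p were named, plus others marked in the text. Orbital captures 3 and 4 were no more alike than other orbital pairs (SD of the log2 difference 0.458, against 0.425 to 0.449) and both were counted. Alternatives were normalization, pseudocount, filter, trend, robust fit, array weights, title prefix as a block or alone, averaging orbital captures 3 and 4, and leaving out each capture. The test was also tried on simulated data with known changes. The simulated noise was independent between captures, so it cannot bear on captures that share an animal, and no conclusion is drawn from it.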

Additional observations from a re-analysis of the deposited data

Results flagged for a closer look

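Sod3 in global capture 1, at an intensity of 13.5, stood apart from the other global captures (39.9, 49.1 and 44.7). Its gap to the nearest of them was 0.836 of the range of the layer, past Dixon's critical value for 4 samples. Of 18 groups examined (9 genes in 2 layers), 1 passed that value, and chance alone marks about 1 in 20 groups.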

How the results depend on the processing

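Over 22 alternatives the difference kept its sign for Mb (0.72 to 0.92, called in 20), Mt3 (1.34 to 2.46, called in 22), Gpx1 (0.43 to 0.72, called in 18), Gpx4 (0.34 to 0.87, called in 1) and Prdx3 (-0.37 to -0.15, called in 0), and for Sod3 over 20 (0.40 to 1.18, called in 0). Sod3 fell below the filter, and so was not tested, under the stricter filter and among R2 captures alone, where its untested difference was 1.36. The sign turned for Sod1 among R2 captures alone (-0.034), without orbital capture 1 (-0.012) and without global capture 3 (-0.016), with a range of -0.016 to 0.138 on leaving out 1 capture. It turned for Sod2 among R2 captures alone (-0.113) and without global capture 3 (-0.028; range -0.028 to 0.229), and for Cat among R3 captures alone (-0.207) and without global capture 2 (-0.026; range -0.026 to 0.210). The number of genes called of the 9 was 1 among R2 and 1 among R3 captures alone, and 2 to 4 on leaving out 1 capture. The number of probe sets called was 106 and 170 among R2 and R3 captures alone, which hold fewer samples, and 461 (without global capture 3) to 725 on leaving out 1 capture, against 705. With the title prefix as a fixed replicate block 745 probe sets and 3 of the 9 genes were called, and the labels do not say that the prefix pairs captures. Settings for related genes were added after seeing the data: 429 values of called genes kept their call, 118 lost it and 0 reversed, and of the counts per list 145 stayed within 1.5 times and 31 did not. Among related and marker genes, the call held in 8 of 22 alternatives for Fmod, 9 for Gstm7, 10 for Fbln1 and 11 for Ogdh. It held in 12 of 22 for Sesn1 and Nefm, 12 of 21 for Rcan1, 13 of 22 for Prdx2 and 19 of 22 for Ttn. Beyond left-out captures and single prefixes, these calls were lost under some changes of normalization, filter, trend, robust fit, prefix block or averaging. Dim probe sets (Mt3 and Sod3 in global captures) limit the size of their folds.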
